A study of Mus musculus with 7 samples.

Results

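Cps1, Ass1, Otc, Pck1, Glul, Oat, Hal and Sds are 8 genes of amino acid and nitrogen metabolism that hepatocytes use in different parts of the liver lobule. They were taken by symbol from the 55357 features of the mouse single-cell count tables, where each symbol named 1 feature, and were followed in 7 liver samples. In the mouse the first steps of the urea cycle lie in mitochondria, where carbamoyl phosphate synthetase (Cps1) captures ammonia and ornithine transcarbamylase (Otc) makes citrulline, and argininosuccinate synthetase (Ass1) carries the cycle on in the cytosol. Hepatocytes around the portal vein are known for urea synthesis, gluconeogenesis and amino acid breakdown, to which Pck1 (phosphoenolpyruvate carboxykinase), Hal (histidine ammonia-lyase) and Sds (serine dehydratase) belong. Hepatocytes around the central vein are known for glutamine synthetase (Glul), which takes up the remaining ammonia, and for ornithine aminotransferase (Oat).

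The samples were mouse livers labelled as hepatocellular carcinoma (HCC) tissue. All mice had received plasmids for the oncogenes Nras and C-myc by hydrodynamic tail vein injection, a rapid injection that carries plasmids into hepatocytes, and livers were taken 2 weeks later. In 4 samples (IL-2/CD25 1 to 4) a plasmid for IL-2/CD25, which the title calls a fusion protein, had been injected as well, and 3 samples (Control 1 to 3) came without it. The labels give no strain, age, plasmid promoter or part of the liver, and they do not say that samples came from separate animals, so p-values measure the spread between samples that may be technical. Libraries were 10x Genomics 3′ v3.1, which count unique molecular identifiers (UMIs), about 1 per captured RNA molecule, near the 3′ end, so that counts do not scale with gene length.

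After filters 34062 barcodes were kept in IL-2/CD25 samples and 23677 in Control samples. The deposited UMIs came to between 37653600 and 47881379 per IL-2/CD25 sample and between 76438139 and 181755269 per Control sample. Barcodes with 10 or more UMIs of the keratins Krt8 and Krt18 were taken first and are called keratin-high cells. Of the rest, barcodes with at least 2% of their UMIs, and at least 10, from 10 hepatocyte genes such as Alb and Apoa1 are called hepatocyte-like. All others are called other cells. None of the 8 genes was used to form these populations. Pairs of libraries shared between 14 and 37 barcode sequences over 21 pairs. Values are CPM, the gene's UMIs scaled to the total UMIs of the population in that sample, and intervals or floors cover counting error only.

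Barcodes that resembled hepatocytes were found almost wholly in IL-2/CD25 samples, and keratin-high cells mostly in Control samples. The hepatocyte-like gate held 17, 79, 127 and 18 barcodes in IL-2/CD25 1 to 4, against 1, 1 and 0 in Control 1 to 3. Their share of kept barcodes was 0.684% ± 0.557 in IL-2/CD25 samples and 0.00867% ± 0.00768 in Control samples (SD, n = 4 and 3). The groups did not overlap, but the difference did not pass an exact two-sided permutation test over the 35 ways to divide the 7 samples (p = 0.0857, adjusted p = 0.0857 over the 2 shares). The keratin-high gate held 51, 6, 47 and 2 cells in IL-2/CD25 1 to 4, against 577, 378 and 2236 in Control 1 to 3. Their share was 0.334% ± 0.347 in IL-2/CD25 samples and 13.3% ± 12.5 in Control samples (exact permutation p = 0.0286, the smallest this design allows, adjusted p = 0.0571). In such samples fewer cells of a type and less RNA per cell cannot be told apart.

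The keratin-high cells of the 2 groups differed in their markers. In Control samples they held 3219 ± 19.3 CPM of Nras and 2318 ± 215 CPM of Myc (SD, n = 3), the injected oncogenes, with 46.6 ± 1.80 CPM of the hepatocyte factor Hnf4a, 8.40 ± 1.31 CPM of the epithelial marker Epcam and 18.7 ± 7.51 CPM of Alb. In IL-2/CD25 1 and 3, the 2 treated samples with at least 20 such cells, they held 127 ± 100 CPM of Nras and 28.5 ± 36.8 CPM of Myc, with 529 ± 231 CPM of Epcam and 606 ± 271 CPM of Alb (SD, n = 2). Of the 6 bile duct markers, Epcam, Krt19, Cldn7 and Sox9 had higher means in these IL-2/CD25 samples, and Krt7 and Spp1 lower means. Krt19 had 1948 ± 2.82 CPM in IL-2/CD25 and 283 ± 17.9 CPM in Control samples, and Cldn7 421 ± 27.8 and 10.9 ± 3.66 CPM. Sox9 had 130 ± 145 CPM in IL-2/CD25 and 86.3 ± 15.0 CPM in Control samples. Krt7 had 314 ± 2.27 CPM in IL-2/CD25 and 655 ± 22.1 CPM in Control samples, and Spp1 3251 ± 4232 and 4170 ± 207 CPM. The ranges of Sox9 and Spp1 overlapped between the groups. Upk3b, a mesothelial marker, had 363 ± 393 CPM in IL-2/CD25 and 5.17 ± 4.94 CPM in Control samples. The name tumour cells that the study's keratin gate carries was therefore not borne out by the oncogenes in the treated samples, and the cells are called keratin-high throughout. Ptprc, the leukocyte gene CD45, had a UMI in 47.9% to 58.6% of Control keratin-high cells, and in 62.7% and 59.6% of those of IL-2/CD25 1 and 3. At least 3 of 6 neutrophil markers were found in 455 of 577, 282 of 378 and 1945 of 2236 keratin-high cells of Control 1 to 3. In IL-2/CD25 1 and 3 they were found in 7 of 51 and 3 of 47. The part of leukocyte RNA in keratin-high levels was not tested. A further 107, 41 and 326 Control barcodes past the keratin gate had been removed as doublets.

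The 241 hepatocyte-like barcodes of the IL-2/CD25 samples carried the urea cycle genes and Pck1 at high level and Sds and Glul at low level. Pck1, Ass1, Otc and Cps1 stood at 319 CPM or more in each of the 4 samples. The 8 genes together made 0.613% of the UMIs of these barcodes. Their median share of mitochondrial UMIs was 0%, 0.0530%, 0.118% and 0.149% in IL-2/CD25 1 to 4. In other cells of the same samples it was 1.72% to 2.12%. Whether the hepatocyte-like barcodes held whole cells was not tested. No comparison of hepatocyte-like barcodes between the groups was possible: the 2 Control barcodes held 564 and 612 UMIs and none from any of the 8 genes.

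Cps1, the mitochondrial entry enzyme, had 319, 414, 445 and 463 CPM in hepatocyte-like barcodes of IL-2/CD25 1 to 4, a mean of 410 ± 64.5 (SD, n = 4). Otc had 811, 1276, 1014 and 559.8 CPM, a mean of 915 ± 304. Ass1 had 2201, 2514, 1902 and 1409 CPM, a mean of 2006 ± 470. Ass1 was above Otc and Otc above Cps1 in every sample. Other enzymes of the cycle were measured in the same barcodes: the mean level was 1506 ± 350 CPM for Arg1 (arginase, the last step), 322 ± 118 CPM for Asl, which follows Ass1, 328 ± 138 CPM for the ornithine carrier Slc25a15 and 88.9 ± 71.4 CPM for Nags, which makes the activator of Cps1. Arg2, the arginase known from other tissues, had 0 UMIs.

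Pck1, the key enzyme of gluconeogenesis, had 1593, 2214, 2052 and 1679 CPM in IL-2/CD25 1 to 4, a mean of 1884 ± 297. Hal, the first enzyme of histidine breakdown, had 174, 294, 277 and 174 CPM, a mean of 230 ± 65.0. Sds, which breaks down serine, had 29.0, 81.8, 63.2 and 57.9 CPM, a mean of 58.0 ± 21.9 that rests on 43 UMIs. Pck1 was thus near Ass1 in level, and its range overlapped that of Ass1, while Hal lay above Sds in every sample.

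Oat and Glul, the genes known from central vein hepatocytes, were low and uneven. Oat had 174, 224, 126 and 57.9 CPM in IL-2/CD25 1 to 4, a mean of 145 ± 70.5. Glul had 57.9, 153, 42.1 and 116 CPM, a mean of 92.1 ± 51.3 from 52 UMIs. Of these, 17 lay in 1 barcode of IL-2/CD25 2, which held 607 UMIs in all, and without it, a choice made after the values were seen, that sample had 60.2 CPM and the mean was 69.0 ± 32.2. The ranges of Oat and Glul overlapped, so no order between them was seen.

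Per barcode, Pck1 was detected in 207, Ass1 in 206, Otc in 174 and Cps1 in 108 of the 241 hepatocyte-like barcodes. Hal was detected in 76, Oat in 37, Glul in 25 and Sds in 23. A UMI of Cps1 was thus found in 44.8% of hepatocyte-like barcodes at median depths of 769 to 1816 UMIs, against 1.33% of T-like cells of the same samples at 3659 to 4713 UMIs, a cell type that should lack the gene. The share with Sds was 9.54% of hepatocyte-like barcodes and 0.0380% of T-like cells. For Glul these shares were 10.4% and 15.0%, so that its detection in hepatocyte-like barcodes was below that in the deeper T-like cells. Cps1, Ass1 and Otc were found together in 85 of the 241 barcodes, and 7 held no UMI of any of the 8 genes.

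**Figure D1:**
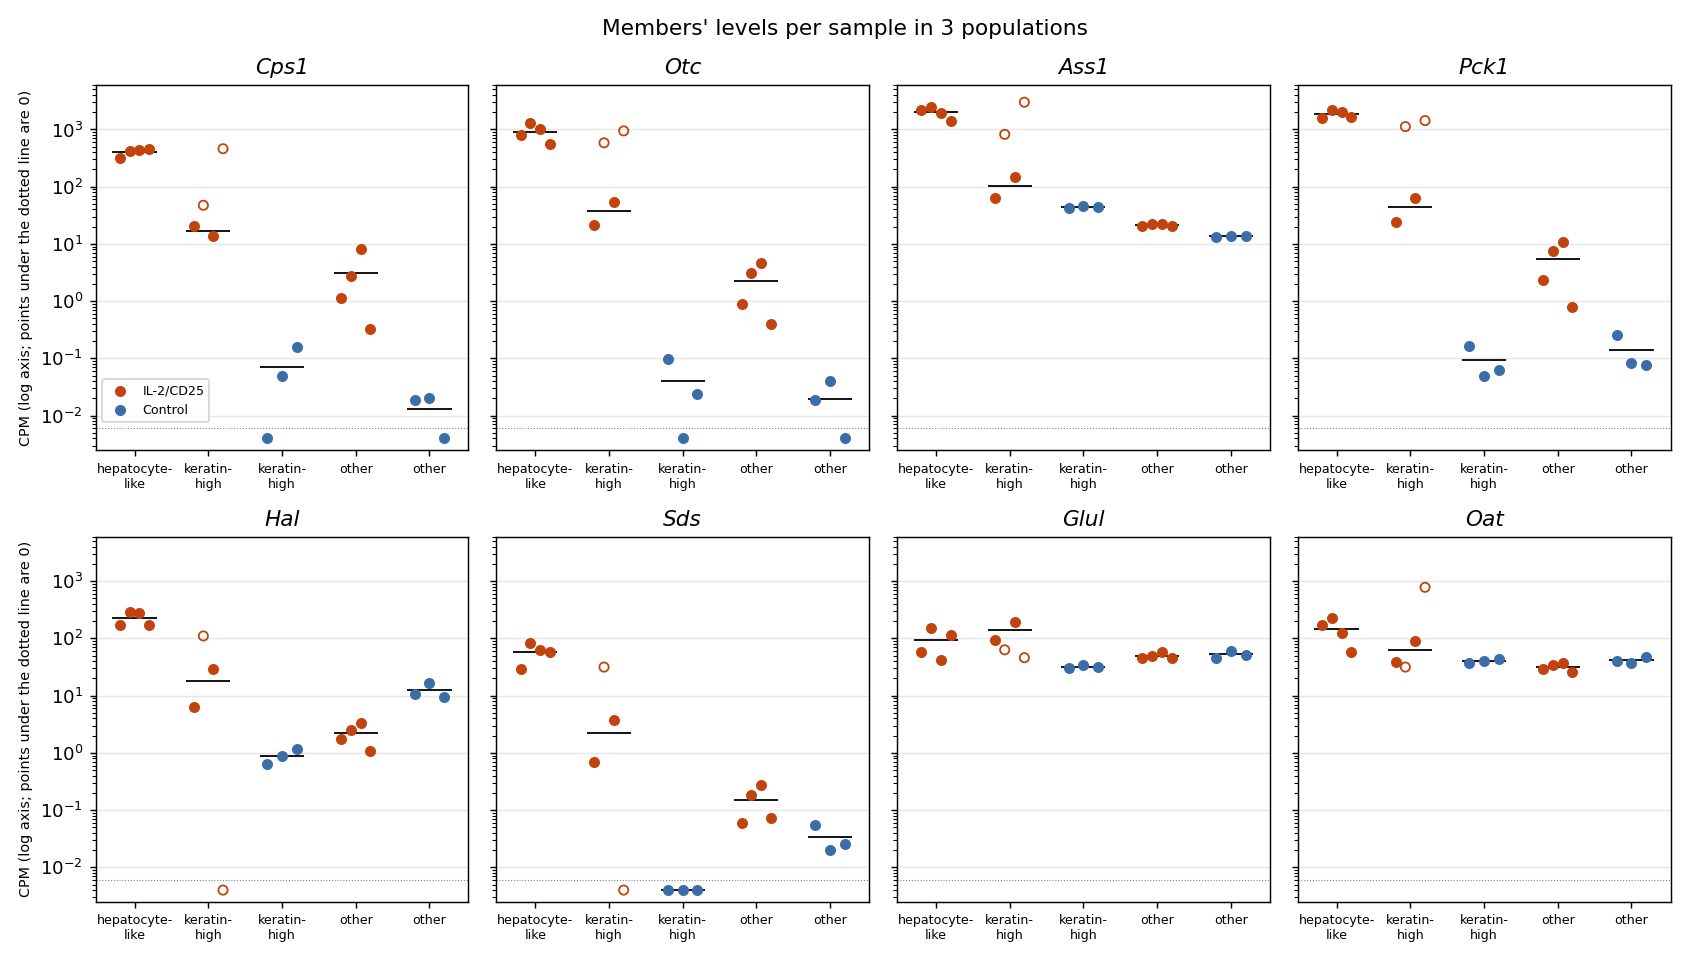
CPM of each of the 8 genes on a log axis, 1 point per sample, in hepatocyte-like barcodes of IL-2/CD25 samples, keratin-high cells and other cells of both groups. Open circles mark samples with under 20 barcodes, lines mark the mean of the filled points, and points under the dotted line had 0 UMIs. Cps1, Otc and Pck1 are high and Sds is low in hepatocyte-like barcodes, and these genes are at or near 0 in Control populations. Glul and Oat lie between 26.2 and 61.1 CPM in other cells of both groups.

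Against other cells of the same IL-2/CD25 samples, 7 of the 8 genes were higher in hepatocyte-like barcodes by edgeR's quasi-likelihood test with Benjamini-Hochberg adjustment, with the sample as a block, and Glul did not pass. Of all 14774 genes tested, 51.8% were called, and 14.6% were called higher. The log2 difference was 8.88 ± 0.42 (SE) for Otc, 8.76 ± 0.43 for Pck1, 8.41 ± 0.72 for Sds, 7.41 ± 0.38 for Cps1, 6.59 ± 0.37 for Hal, 6.35 ± 0.38 for Ass1 and 2.02 ± 0.33 for Oat. The adjusted p of edgeR's quasi-likelihood test was 4.71e-09 for Oat and smaller for the other called genes. Sds, with 20 UMIs in other cells and 43 in hepatocyte-like barcodes, passed the low-count filter only through the hepatocyte-like barcodes. Its call adds nothing to these counts. For Glul the log2 difference was 0.64 ± 0.35 (edgeR's quasi-likelihood test, adjusted p = 0.111). Oat rested on where the gate stood: with a hepatocyte gate of 5% its log2 difference was 1.08 (edgeR, adjusted p = 0.0750). The gate used 10 other liver genes, so that a difference in liver genes as such was built into it.

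Upstream sequence was read for 6 of the 8 genes from RefSeq (mouse build GRCm38.p6), 250 bases before each gene's start. The stretches of 4 genes are shown. Otc and Pck1 had most of their IL-2/CD25 UMIs in hepatocyte-like barcodes, and Ass1 and Glul had most of them in other cells. These 4 stretches differ in CG dinucleotides, a choice that leaves out Hal, which does not follow the division. They are given 5′ to 3′ on the plus strand with CG in capitals, for Otc at chrX:10252055-10252304, Pck1 at chr2:173152823-173153072, Ass1 at chr2:31470020-31470269 and Glul at chr1:153899679-153899928.
Otc: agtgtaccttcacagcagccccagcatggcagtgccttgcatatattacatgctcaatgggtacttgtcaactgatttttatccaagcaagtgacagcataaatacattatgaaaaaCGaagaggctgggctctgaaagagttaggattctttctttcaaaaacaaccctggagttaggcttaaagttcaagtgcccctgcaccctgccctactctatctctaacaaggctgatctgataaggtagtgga
Pck1: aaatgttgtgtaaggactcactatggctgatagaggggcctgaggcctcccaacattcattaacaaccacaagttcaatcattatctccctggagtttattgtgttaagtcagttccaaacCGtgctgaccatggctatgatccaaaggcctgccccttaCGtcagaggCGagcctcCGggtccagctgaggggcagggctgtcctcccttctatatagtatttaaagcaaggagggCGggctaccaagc
Ass1: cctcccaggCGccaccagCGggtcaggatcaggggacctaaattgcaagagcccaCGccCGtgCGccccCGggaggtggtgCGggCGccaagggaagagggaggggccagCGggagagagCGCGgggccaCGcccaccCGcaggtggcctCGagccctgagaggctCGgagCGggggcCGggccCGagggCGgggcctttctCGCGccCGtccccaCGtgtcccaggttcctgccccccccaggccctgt
Glul: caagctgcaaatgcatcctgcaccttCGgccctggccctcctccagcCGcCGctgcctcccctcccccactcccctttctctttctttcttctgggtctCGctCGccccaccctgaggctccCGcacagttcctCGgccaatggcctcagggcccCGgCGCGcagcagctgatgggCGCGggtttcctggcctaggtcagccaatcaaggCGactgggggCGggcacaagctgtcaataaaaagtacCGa
Otc held 1 CG, Pck1 5, Glul 15 and Ass1 23, against a median of 6 over 32851 promoters of the same length. Of the genes not shown, Oat, with 94.3% of its IL-2/CD25 UMIs in other cells, held 14. Hal, with 58.1% of its IL-2/CD25 UMIs in other cells, held only 6, near Pck1 and at the median. Otc lay at percentile 7.87 and Ass1 at percentile 86.7 of these promoters. Letters searched on both strands were TATAAA, found in Hal and in 12.4% of promoters, CCAAT, found in Glul, Oat and Hal and in 33.8%, and AGGTCA, found in Glul and in 14.02%. A match is a description of the letters only.

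Lists of related genes were read in the comparison of hepatocyte-like barcodes with other cells, where 51.8% of all genes were called and 14.6% were called higher. Of 9 other urea cycle and ammonia genes 8 were tested, and 7 were higher and 1 lower, with a median log2 difference of 4.71 against -1.42 over all genes. Gls2, the liver glutaminase, averaged 140 ± 55.8 CPM in hepatocyte-like barcodes and 0.348 ± 0.144 CPM in other cells (SD, n = 4 each). Of 9 tested periportal genes 6 were higher and 1 lower (Fbp1 972.6 ± 289 against 1.78 ± 1.55 CPM), and of 8 tested pericentral genes 7 were higher (Rgn 1881 ± 286 against 2.74 ± 2.07 CPM, Cyp2e1 1546 ± 489 against 3.54 ± 4.13 CPM). Of 9 gluconeogenesis and amino acid breakdown genes 7 were higher and 2 lower, and of 8 tested hepatocyte regulators 4 were higher and 2 lower. Of 7 tested genes of glutamine, proline and arginine use 2 were higher and 4 lower.

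Within the hepatocyte-like barcodes, those with a Glul UMI had less Pck1, Hal and Sds than those without in each of the 4 samples. They also had more Oat and Cyp2e1, but counts were few in IL-2/CD25 1 and 4. There were 25 with and 216 without, and IL-2/CD25 1 to 4 held 2, 8, 12 and 3 of those with Glul. In IL-2/CD25 1 and 4 barcodes with Glul held 0 UMIs of Hal and Sds. Those without held 6 and 9 UMIs of Hal and 1 and 3 of Sds. The 3 Oat UMIs with Glul in IL-2/CD25 4 lay in 1 barcode. Pooled over the 4 samples, Cyp2e1, a cytochrome P450 known from central vein hepatocytes, had 2748 CPM in barcodes with Glul and 1586 CPM in barcodes without, and it was higher with Glul in 4 of 4 samples. Oat had 274 CPM with Glul and 122 CPM without, and was higher in 4 of 4 samples. Without the barcode of 17 Glul UMIs, Oat had 227 CPM with Glul, and no gene of this split changed its number of samples in either direction. Pck1 had 1241 CPM with Glul and 2233 CPM without, Hal 105 and 307 CPM, and Sds 16.1 and 78.1 CPM, each lower with Glul in 4 of 4 samples. The Sds value with Glul rests on 2 UMIs.

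The urea cycle genes were less divided. Cps1 had 314 CPM in barcodes with Glul and 459 CPM in barcodes without, Otc 806 and 1097 CPM, and both were lower with Glul in 3 of 4 samples. Ass1 had 1830 CPM with Glul and 2104 CPM without, and was lower in 2 of 4 samples. Cyp2f2, a cytochrome P450 known from portal hepatocytes, had 24.2 CPM with Glul and 154 CPM without. The barcodes were split on the measured Glul count and most counts are small, so these values are a description with no test. Barcodes with Glul were also deeper, with a median of 3388 UMIs against 1600 without, though not in IL-2/CD25 2 (1356.5 against 1589).

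**Figure D2:**
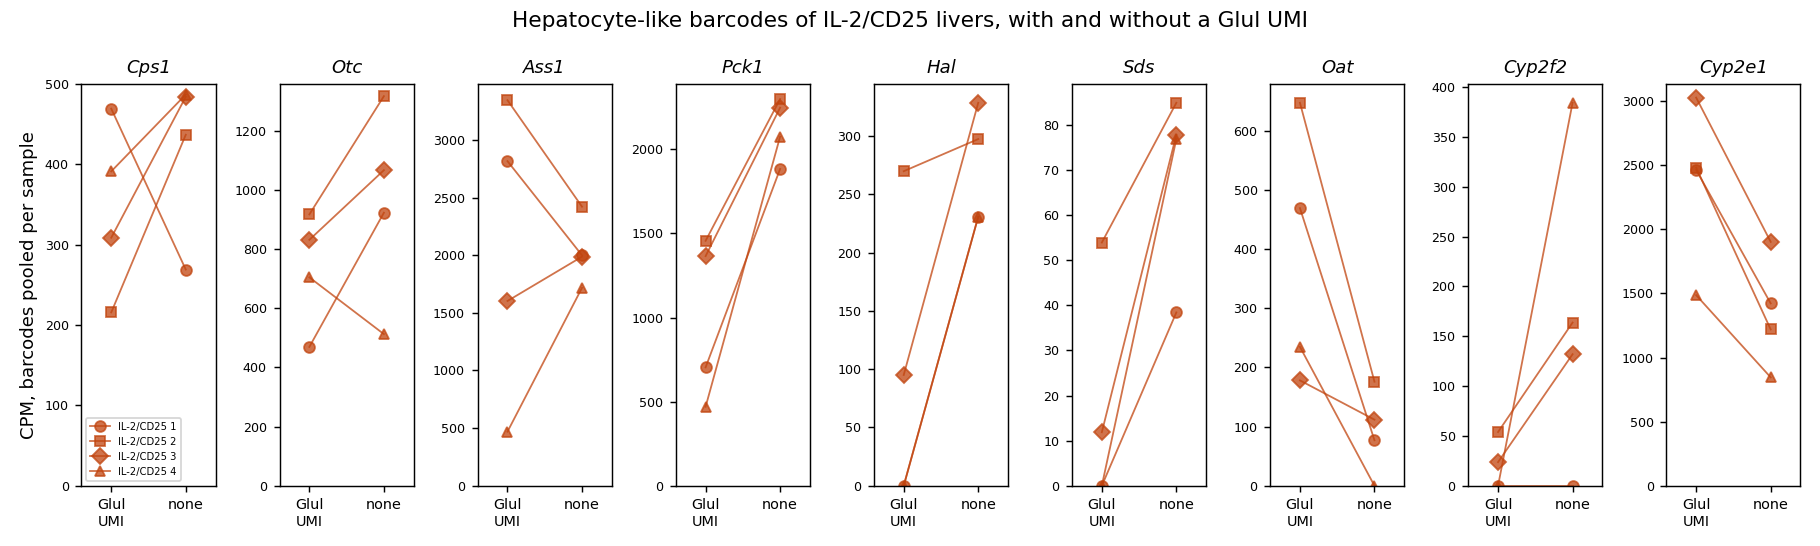
CPM of 7 of the genes and of Cyp2f2 and Cyp2e1 in hepatocyte-like barcodes of the IL-2/CD25 samples with a Glul UMI (25 barcodes) and without one (216 barcodes), 1 line per sample. Pck1, Hal and Sds are lower and Oat and Cyp2e1 higher with Glul in each of the 4 samples, while Ass1 has no common direction. IL-2/CD25 1 and 4 hold only 2 and 3 barcodes with a Glul UMI.

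The keratin-high cells of Control samples, which carried the oncogenes, had almost none of the liver-restricted genes but had Ass1, Glul and Oat at 30.6 to 46.7 CPM. In 3191 cells with 176425338 UMIs there were 21 UMIs of Cps1, 14 of Pck1 and 6 of Otc. Sds had 0 UMIs, which allows up to 0.0170 CPM and a share of cells with a UMI of up to 0.0940%. Ass1 had 42.4, 46.7 and 43.7 CPM in Control 1 to 3, a mean of 44.3 ± 2.23, and a UMI in 65.1% of the cells. Glul had 30.6, 33.8 and 31.5 CPM, a mean of 32.0 ± 1.68, and Oat had 37.6, 39.6 and 44.1 CPM, a mean of 40.4 ± 3.31. These levels varied little between the 3 samples although the share of keratin-high cells differed widely between them.

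Within Control samples Ass1 was higher, and Glul and Hal lower, in keratin-high cells than in other cells. Of 17341 genes tested 82.4% were called, so a call says little in itself. Ass1 had 44.3 ± 2.23 CPM in keratin-high cells and 13.8 ± 0.331 CPM in other cells (SD, n = 3 each), a log2 difference of 1.91 ± 0.07 (edgeR's quasi-likelihood test, adjusted p = 7.15e-06). Glul had 32.0 ± 1.68 CPM in keratin-high and 52.5 ± 7.95 CPM in other cells, a log2 difference of -0.48 ± 0.07 (edgeR, adjusted p = 0.00133). Hal had 0.890 ± 0.262 CPM in keratin-high and 12.4 ± 3.84 CPM in other cells, a log2 difference of -3.44 ± 0.25 (edgeR, adjusted p = 6.58e-05). Oat did not pass (0.19 ± 0.07, edgeR adjusted p = 0.0512). Of all Ass1 UMIs of the Control samples 79.8% lay in keratin-high cells, while 90.7% of the Hal UMIs lay in other cells. Krt8, a keratin, stood at 58.2 to 169 CPM in other cells of Control samples and at 0.494 to 7.27 CPM in those of IL-2/CD25 samples, and the part of free RNA in these values was not tested.

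Of the other genes in this comparison, Asns, which makes asparagine, had 145 ± 1.72 CPM in keratin-high and 10.1 ± 4.60 CPM in other cells, and Prodh, which breaks down proline, 23.3 ± 3.59 and 4.00 ± 0.995 CPM. All 9 genes of glutamine, proline and arginine use were tested, 7 were higher and 2 lower, where 82.4% of all genes were called. Of 9 other urea cycle genes 4 were higher and 2 lower, Arg1 among the lower with 22.3 ± 6.57 CPM in keratin-high and 458 ± 80.7 CPM in other cells. Of 9 hepatocyte regulators 7 were higher and 1 lower.

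Keratin-high cells of IL-2/CD25 samples stood apart from those of Control samples in Ass1 and Glul once barcodes that also passed the hepatocyte gate were set aside. Glul had 93.9 and 190.1 CPM in IL-2/CD25 1 and 3, against 30.6, 33.8 and 31.5 CPM in Control 1 to 3, a log2 change of 1.30 ± 0.26 (edgeR's quasi-likelihood test, adjusted p = 0.00651). The groups did not overlap. In this comparison 59.9% of 16142 genes were called, and of 7 members tested Cps1, Pck1, Otc, Hal and Glul were called higher, while Ass1 (0.37 ± 0.30) and Oat (-0.22 ± 0.31) did not pass.

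A few barcodes carried most of these calls. Cps1, Pck1 and Otc, with 21, 14 and 6 Control UMIs, also passed the low-count filter only through the IL-2/CD25 samples. In IL-2/CD25 1 and 3, 1 of 51 and 6 of 47 keratin-high cells also passed the hepatocyte gate. Without them Cps1 had 0 and 1.34 CPM and Otc 0 and 2.69 CPM, against 20.7 and 13.6 CPM of Cps1 and 21.4 and 53.1 CPM of Otc with them, and Cps1, Otc and Pck1 no longer passed the low-count filter. Ass1 had 7.70 and 10.7 CPM in IL-2/CD25 1 and 3 without them, against 42.3, 46.7 and 43.7 CPM in Control 1 to 3 on the same gate. On that gate Ass1 was lower in the IL-2/CD25 samples (log2 -3.13 ± 0.19, edgeR's quasi-likelihood test, adjusted p = 0.000127), whereas with the 7 barcodes it had 62.9 and 145.7 CPM. Glul was higher on that gate too (95.1 and 204 CPM, log2 1.37 ± 0.27, edgeR adjusted p = 0.00636), Hal did not pass (1.83 ± 0.84, adjusted p = 0.106), and 59.6% of genes were called. In IL-2/CD25 2 and 4, with 6 and 2 keratin-high cells, 4 and 1 also passed the hepatocyte gate, and no test was made on them.

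Among other cells, which are mostly leukocytes, the liver-restricted genes were counted at a few CPM in IL-2/CD25 samples and at almost 0 in Control samples. Cps1 had 1.11, 2.74, 7.998 and 0.316 CPM in IL-2/CD25 1 to 4, against 0.0184, 0.0204 and 0 CPM in Control 1 to 3. Otc had 0.870, 3.05, 4.67 and 0.395 CPM in IL-2/CD25 samples, against 0.0184, 0.0408 and 0 CPM in Control samples. Pck1 had 2.35, 7.59, 10.9 and 0.791 CPM in IL-2/CD25 samples, against 0.258, 0.0815 and 0.0769 CPM in Control samples. None of the groups overlapped. Alb, an abundant hepatocyte transcript, had 19.9, 31.7, 114 and 7.61 CPM in other cells of IL-2/CD25 1 to 4, against 1.10 to 1.51 CPM in Control samples, so that all 4 genes stood in the same order over the IL-2/CD25 samples. Per 1000 UMIs of the 10 gate genes, Cps1 had 20.4, 24.6, 23.7 and 12.7 UMIs in other cells of IL-2/CD25 1 to 4, against 4.84, 6.81, 6.58 and 6.23 in hepatocyte-like barcodes of the same samples. Pck1 had 43.0, 68.3, 32.4 and 31.2 in other cells, against 24.2, 36.4, 30.3 and 22.6 in hepatocyte-like barcodes. Both ratios were higher in other cells in each sample, for Pck1 by little in IL-2/CD25 3, and the gate itself selects on the 10 genes. The part of free hepatocyte RNA in these UMIs was not tested.

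By edgeR's quasi-likelihood test with Benjamini-Hochberg adjustment, 7 of the 8 genes passed the low-count filter in other cells and all 7 were called, 4 higher and 3 lower in IL-2/CD25 samples, where 73.9% of 18015 genes were called. Cps1, Otc and Pck1, with 2, 3 and 21 Control UMIs, passed that filter only through the IL-2/CD25 samples, so their calls add nothing to the counts. The pooled CPM ratio, with its counting interval, was 206 (56.7 to 1707) for Cps1 and 101 (34.4 to 495) for Otc, from 2 and 3 Control UMIs, and 34.9 (22.7 to 56.7) for Pck1. Sds had 20 UMIs in IL-2/CD25 and 5 in Control samples and was not tested.

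**Figure D3:**
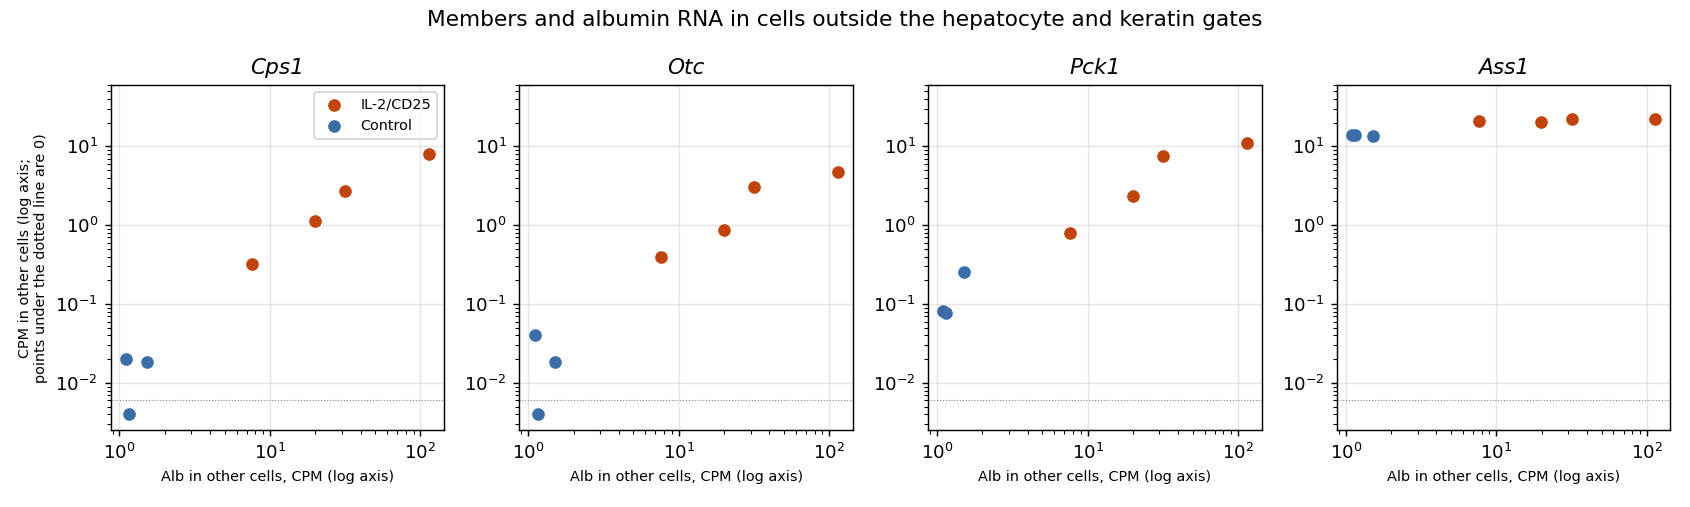
CPM of Cps1, Otc, Pck1 and Ass1 in other cells against CPM of Alb in the same cells, 1 point per sample, both axes logarithmic. Cps1, Otc and Pck1 stand in the order of Alb over the 4 IL-2/CD25 samples (Alb 7.61 to 114 CPM), while Ass1 stays between 20.4 and 22.5 CPM.

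Ass1, Glul, Oat and Hal varied less over the IL-2/CD25 samples than Alb did. Glul, Oat and Hal stood in the same order over these samples as Alb, and Ass1 did not. Ass1 had 20.4, 21.9, 22.5 and 20.7 CPM in IL-2/CD25 1 to 4, against 13.4, 13.98 and 13.9 CPM in Control 1 to 3 (log2 0.27 ± 0.06, edgeR's quasi-likelihood test, adjusted p = 0.00350). Oat had 29.6, 33.7, 37.7 and 26.2 CPM in IL-2/CD25 samples, against 40.4, 37.5 and 46.5 CPM in Control samples (log2 -0.75 ± 0.11, adjusted p = 0.000348). Hal had 1.78, 2.55, 3.39 and 1.09 CPM in IL-2/CD25 samples, against 10.8, 16.8 and 9.61 CPM in Control samples (log2 -2.88 ± 0.36, adjusted p = 0.000135). Groups did not overlap for Ass1 and Hal and overlapped narrowly for Oat. Glul had 45.5, 49.7, 57.2 and 44.9 CPM in IL-2/CD25 samples, against 45.4, 61.1 and 51.2 CPM in Control samples. These overlapped throughout, and its log2 change of -0.46 ± 0.12 (edgeR, adjusted p = 0.00663) was -0.09 (adjusted p = 0.514) when sums were scaled by library size alone.

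These sums mix cell types whose numbers differed between the groups, with 14088 NK and ILC1-like cells and 1476 neutrophil-like cells in IL-2/CD25 samples, against 358 and 7407 in Control samples. The genes were therefore followed within classes of other cells named from 6 marker genes each, where Glul and Ass1 differed by class and group. No class took 42.4% to 45.4% of other cells in Control samples, against 12.2% to 15.6% in IL-2/CD25 samples. Of these Control barcodes 50% to 58.1% were led by neutrophil or monocyte and macrophage markers. The classes may thus hold a differently selected part of the cells in each group, which was not tested.

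Glul was higher in IL-2/CD25 samples in monocyte and macrophage-like cells and in NK and ILC1-like cells, and lower in neutrophil-like cells. In monocyte and macrophage-like cells it had 121, 156, 132 and 88.4 CPM in IL-2/CD25 1 to 4, against 46.0, 63.8 and 62.3 CPM in Control 1 to 3. The groups did not overlap, and the log2 change was 0.98 ± 0.18 (edgeR's quasi-likelihood test, adjusted p = 0.000493). Of the members 3 were tested here and all were called, where 52.3% of 8372 genes were called.

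In neutrophil-like cells Glul had 34.3, 30.3, 44.3 and 33.6 CPM in IL-2/CD25 samples, against 51.3, 72.3 and 55.7 CPM in Control samples. Again the groups did not overlap, and the log2 change was -0.80 ± 0.17 (edgeR's quasi-likelihood test, adjusted p = 0.00170). Both members tested were called, where 61.8% of 7791 genes were called. The difference between these 2 changes was itself tested as an interaction, a fit chosen after the values were seen, and was 1.67 ± 0.19 on the log2 scale (edgeR, adjusted p = 3.21e-06), where 34.7% of genes were called.

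In NK and ILC1-like cells Glul had 48.8, 59.2, 64.4 and 49.5 CPM in IL-2/CD25 samples, against 38.0, 29.2 and 18.5 CPM in Control samples (log2 0.83 ± 0.19, edgeR's quasi-likelihood test, adjusted p = 0.00369). It was the 1 member of 5 tested that was called, where 37.4% of 13309 genes were called. In T-like cells Glul had 36.9, 40.3, 45.5 and 37.4 CPM in IL-2/CD25 samples, against 27.8, 32.9 and 24.8 CPM in Control samples. The groups did not overlap, but the call (log2 0.39 ± 0.13, edgeR adjusted p = 0.0315, where 46.3% of genes were called) was lost in 9 alternatives. In cDC1-like cells, a dendritic subset known for cross-presentation, Glul averaged 25.1 ± 11.1 CPM in IL-2/CD25 samples and 13.1 ± 1.18 CPM in Control samples (log2 0.83 ± 0.28, edgeR adjusted p = 0.0244), a call lost in 5 alternatives, and 44.8% of genes were called there. In B-like and pDC-like cells Glul did not pass.

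The order of Glul levels over 7 leukocyte classes differed between the groups. Basophil-like cells, with 1 to 10 cells in IL-2/CD25 and 9 to 20 in Control samples, were left out of this order and had 86.3 ± 59.3 CPM of Glul in IL-2/CD25 and 179 ± 130 CPM in Control samples, from 10 and 33 UMIs. In IL-2/CD25 samples its highest mean among them was in monocyte and macrophage-like cells (124 ± 28.1 CPM), whose range overlapped that of hepatocyte-like barcodes. NK and ILC1-like cells were next at 55.5 ± 7.61 CPM and did not overlap with T-like cells at 40.0 ± 3.96 CPM. B-like, pDC-like and neutrophil-like cells lay at 38.3 ± 3.68, 37.2 ± 4.58 and 35.6 ± 6.03 CPM with overlapping ranges, and cDC1-like cells had the lowest mean. Among the 7 in Control samples, neutrophil-like cells (59.8 ± 11.1 CPM) and monocyte and macrophage-like cells (57.4 ± 9.86 CPM) were highest and overlapped, and cDC1-like cells were lowest at 13.1 ± 1.18 CPM, below the ranges of the other 6 classes. These orders are a description with no test.

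Ass1 was higher in IL-2/CD25 samples in both dendritic classes. In cDC1-like cells it had 33.0, 48.8, 42.5 and 46.5 CPM in IL-2/CD25 1 to 4, against 11.4, 6.59 and 9.23 CPM in Control 1 to 3 (log2 2.13 ± 0.22, edgeR's quasi-likelihood test, adjusted p = 2.28e-06). In pDC-like cells, the plasmacytoid dendritic cells known for interferon, it had 32.7, 34.3, 38.6 and 36.5 CPM in IL-2/CD25 samples, against 12.2, 13.04 and 7.02 CPM in Control samples (log2 1.61 ± 0.34, adjusted p = 0.00201). Neither class overlapped between groups. Of 3 members tested in each, 2 were called in cDC1-like cells, where 44.8% of 9147 genes were, and 1 in pDC-like cells, where 14.8% of 9048 were. The fits in cDC1-like, pDC-like and B-like cells were added after the values by class were seen.

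In monocyte and macrophage-like cells Ass1 had 24.6, 10.6, 24.9 and 23.1 CPM in IL-2/CD25 samples, against 10.5, 11.2 and 11.9 CPM in Control samples. IL-2/CD25 2 lay with the Control samples. The log2 change was 0.89 ± 0.23 (edgeR's quasi-likelihood test, adjusted p = 0.00565). T-like cells had 40.7 ± 7.39 CPM of Ass1 in IL-2/CD25 samples and 46.6 ± 20.4 CPM in Control samples, which overlapped, and NK and ILC1-like cells only 4.28 ± 2.79 and 3.81 ± 2.52 CPM. Within these 7 classes in IL-2/CD25 samples Ass1 was thus highest in cDC1-like, T-like and pDC-like cells, whose ranges overlapped, and its lowest mean was in NK and ILC1-like cells, whose range overlapped that of neutrophil-like cells.

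**Figure D4:**
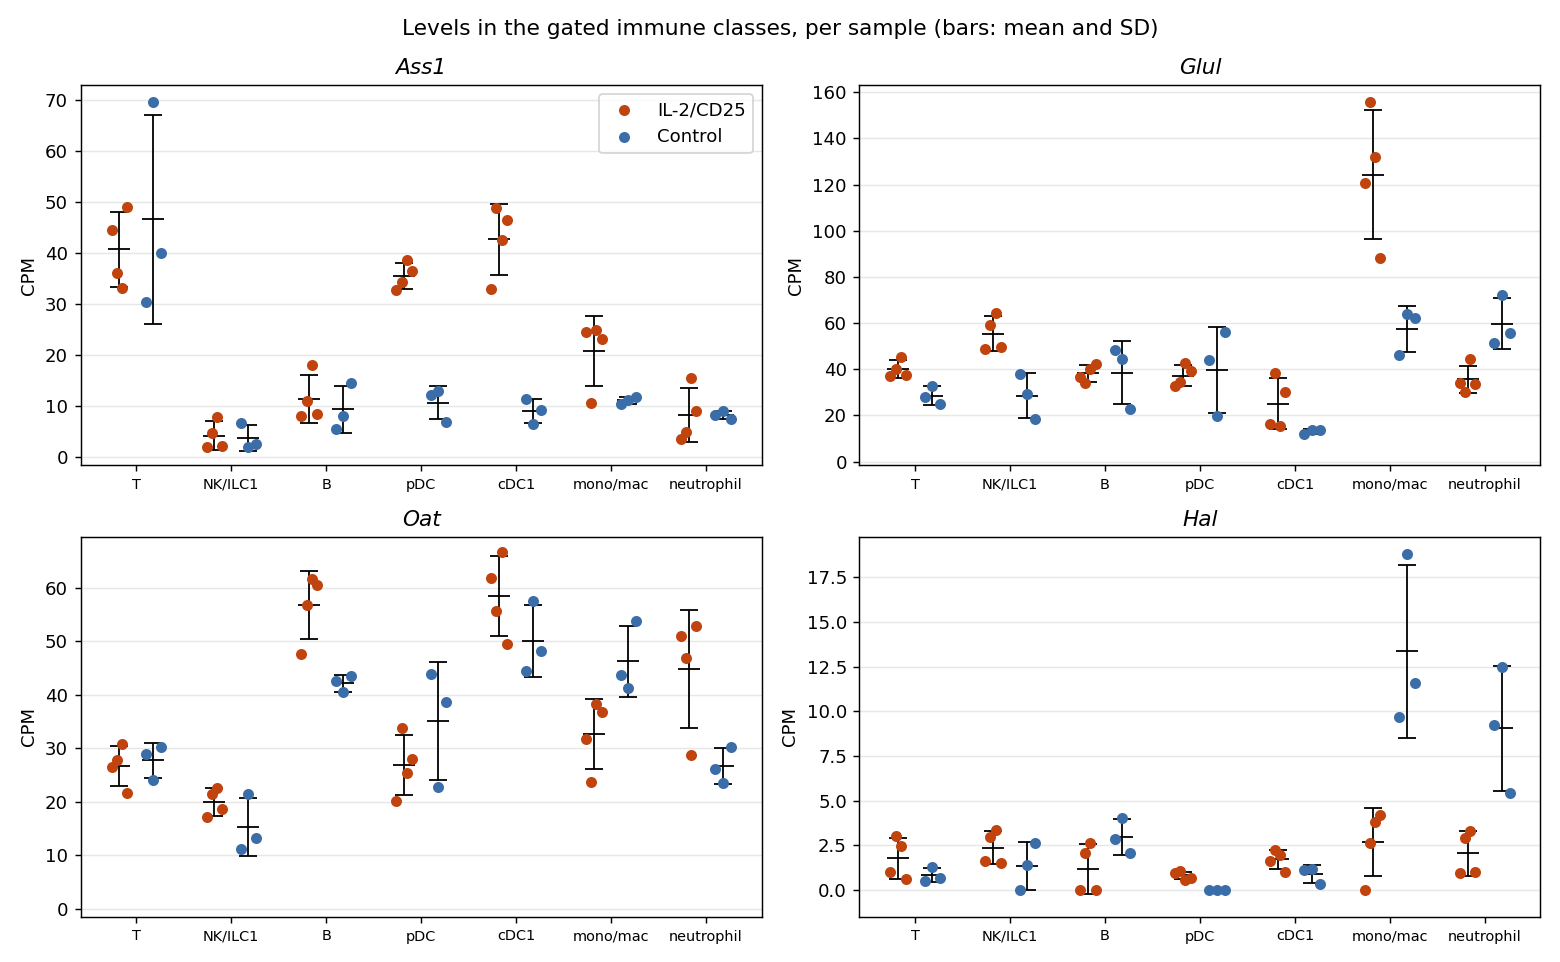
CPM of Ass1, Glul, Oat and Hal by sample in 7 classes of other cells, with the mean and SD of each group, IL-2/CD25 left of Control. Ass1 separates the groups in cDC1-like and pDC-like cells, and Glul separates them in opposite directions in monocyte and macrophage-like and neutrophil-like cells.

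Oat was higher in IL-2/CD25 samples in neutrophil-like cells and lower in monocyte and macrophage-like cells, the reverse of Glul. In neutrophil-like cells it had 50.9, 47.0, 28.8 and 52.9 CPM in IL-2/CD25 samples, against 26.1, 23.6 and 30.3 CPM in Control samples (log2 0.71 ± 0.19, edgeR's quasi-likelihood test, adjusted p = 0.00774), with IL-2/CD25 3 inside the Control range. In monocyte and macrophage-like cells it had 31.7, 23.8, 38.3 and 36.8 CPM in IL-2/CD25 samples, against 43.6, 41.3 and 53.7 CPM in Control samples (log2 -0.54 ± 0.17, edgeR adjusted p = 0.0194), a call lost without Control 3 or IL-2/CD25 1. The interaction of class and group was -1.42 ± 0.22 (edgeR, adjusted p = 7.69e-05). Oat did not pass in NK and ILC1-like, T-like, B-like, cDC1-like or pDC-like cells. In B-like cells the groups did not overlap (56.7 ± 6.37 CPM in IL-2/CD25 and 42.2 ± 1.56 CPM in Control samples), but the log2 change of 0.33 ± 0.20 did not pass (edgeR, adjusted p = 0.270), where 20.8% of genes were called.

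The other members tested in lymphoid classes did not pass. In NK and ILC1-like cells these were Ass1 (log2 0.28 ± 0.86), Pck1, Oat (0.07 ± 0.23) and Hal (0.69 ± 0.85), with adjusted p between 0.145 and 0.962 by edgeR's quasi-likelihood test. In T-like cells they were Ass1 (-0.19 ± 0.23), Pck1, Oat (-0.22 ± 0.17) and Hal (1.12 ± 1.00), with adjusted p between 0.102 and 0.533. Pck1 had 0 UMIs in Control cells of both classes and passed the low-count filter only through the IL-2/CD25 samples. Its test adds nothing to the counts. Against a floor of 3 UMIs over the Control group its pooled CPM in IL-2/CD25 samples was at least 3.26-fold higher in NK and ILC1-like cells and at least 6.23-fold higher in T-like cells.

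Hal was counted mainly in other cells of Control samples, myeloid classes among them. In monocyte and macrophage-like cells it had 0, 2.64, 3.83 and 4.21 CPM in IL-2/CD25 samples, against 9.67, 18.8 and 11.6 CPM in Control samples, and in neutrophil-like cells 0.926, 2.93, 3.32 and 1.02 CPM, against 9.24, 12.5 and 5.44 CPM. The groups did not overlap in either class. Hal did not pass the low-count filter in these 2 classes. Without that filter its log2 change was -2.60 in monocyte and macrophage-like cells (edgeR's quasi-likelihood test, adjusted p = 4.71e-08, where 24.7% of genes were called) and -2.28 in neutrophil-like cells (adjusted p = 1.01e-05, where 28% were). Barcodes that no class took held 68.4% to 70.9% of the Hal UMIs of other cells in Control samples, and 50% to 58.1% of those barcodes were led by neutrophil or monocyte and macrophage markers.

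**Figure D5:**
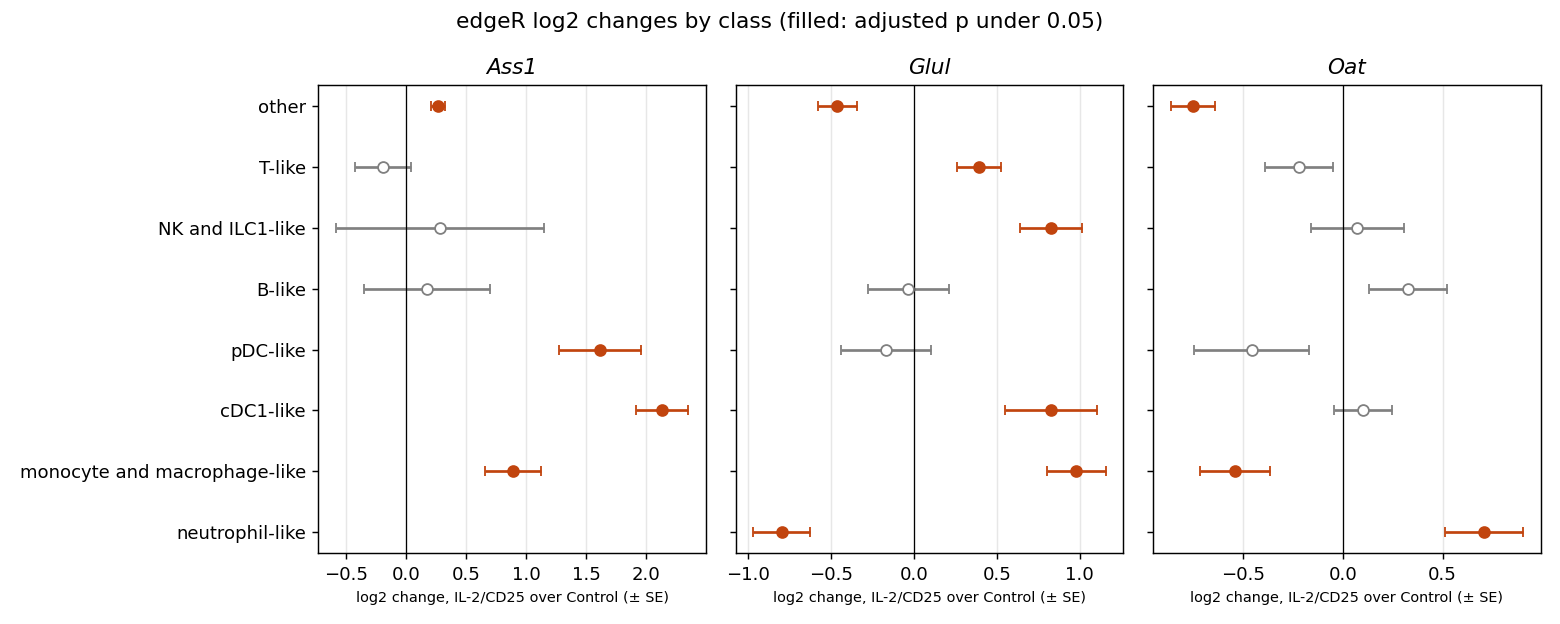
Log2 change of IL-2/CD25 over Control samples fitted by edgeR for Ass1, Glul and Oat in each class of other cells, with standard errors. Filled points have an adjusted p under 0.05. Glul lies at 0.98 in monocyte and macrophage-like and at -0.80 in neutrophil-like cells, and Ass1 at 2.13 in cDC1-like cells.

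In the sum over all kept barcodes 7 members were tested, of which Cps1 (log2 5.92 ± 1.14), Pck1 (6.65 ± 1.06) and Otc (7.57 ± 1.08) were called higher and Oat (-0.77 ± 0.15) lower in IL-2/CD25 samples by edgeR's quasi-likelihood test, where 69.6% of 18581 genes were called. Cps1, Otc and Pck1, with 23, 9 and 35 Control UMIs, passed the low-count filter only through the IL-2/CD25 samples. Their calls add nothing to these counts. Of the Otc UMIs of IL-2/CD25 samples 60.1% lay in hepatocyte-like barcodes, of the Pck1 UMIs 58.7% and of the Cps1 UMIs 37.5%. Of the Glul and Oat UMIs 95.1% and 94.3% lay in other cells. The call for Oat was lost with library size scaling (log2 -0.31, adjusted p = 0.101).

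The related lists were read in the group comparisons as well. In other cells, all 9 other urea cycle and ammonia genes were tested, and 0 were higher and 7 lower in IL-2/CD25 samples, a share near the 73.9% of all genes called there, with a median log2 change of -1.10 against 0.01 over all genes. Arg1, which alternatively activated macrophages also express, had 6.98 ± 1.49 CPM in IL-2/CD25 samples and 458 ± 80.7 CPM in Control samples (log2 -6.41 ± 0.21), and Nos2, the inducible nitric oxide synthase that competes for arginine, 0.0304 ± 0.0246 and 23.3 ± 8.55 CPM. In monocyte and macrophage-like cells Arg1 had 40.7 ± 53.4 CPM in IL-2/CD25 samples and 1058 ± 124 CPM in Control samples (log2 -4.60 ± 0.50), and 2 of 5 tested genes of the list were lower and 0 higher, where 52.3% of all genes were called. In neutrophil-like cells Arg2 was higher, with 172 ± 9.81 CPM in IL-2/CD25 samples and 90.3 ± 5.20 CPM in Control samples (log2 0.88 ± 0.11), while Arg1 was lower.

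Each member's level was also compared across 66 sums per sample and population of at least 20 cells with that of 18277 other genes, as a description, since sums share samples and depth. The closest genes by Pearson's r of log2(CPM + 1) were Sult2a8 (0.97), Cyp2e1 (0.97) and Slco1b2 (0.96) for Cps1, Sult2a8 (0.98), Hpd (0.97) and Apoh (0.97) for Otc, and Tdo2 (0.98), Hpd (0.98) and Slco1b2 (0.97) for Pck1. Cps1, Otc and Pck1 correlated with each other at 0.95 to 0.96. Among the closest genes were Gstp1 (0.80) and Cyb5a (0.80) for Ass1, and the closest were for Glul Selenop (0.77), Mertk (0.73) and Nfic (0.73), for Oat Rraga (0.70), Cmtm8 (0.70) and Nadk2 (0.68), and for Hal Plin5 (0.78), Gm44096 (0.78) and Fbp1 (0.76). Sds had too few UMIs for this measure.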

How the data were processed

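The deposited files hold, for each sample, raw UMI counts per gene and cell barcode, whole numbers per the file headers. Reads were processed with Cell Ranger 7.0.0, per the submitters' processing notes. The genome build of the counts is not given in the sources used here. Both groups carry the same batch label.

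Barcodes were kept with at least 500 UMIs, 200 genes and under 20% mitochondrial UMIs, and 5.81% to 8.51% of those passing were removed per sample as doublets, scored against sums of random pairs. Other cells were put in a class where at least 3 of its 6 markers had a UMI and at least 2 more than of any other list. UMIs were summed per sample and population and tested with edgeR 4.0.16 (R 4.3.3; TMM, filterByExpr, quasi-likelihood test, Benjamini-Hochberg over all genes tested, threshold 0.05), in samples with at least 20 cells, except in fits of all kept barcodes, of other cells and between populations of 1 sample, where the sample was a block. The interaction fit held the sample as a block too. Standard errors are the log2 change divided by the root of the F statistic. Shares were compared by exact permutation over 35 splits. The fits were checked on simulated counts. Figures and sums were made in Python 3.11.15.

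The members and the 6 lists of related genes (58 in all) were chosen with earlier results of these data known. From the lists, up to 3 called genes per list and comparison are named, if their mean reached 20 CPM in either group. Genes most like a member were the 3 with the highest r among genes with at least 100 UMIs. Levels of listed genes in hepatocyte-like barcodes are named without that rule. Some genes that these rules name are not reported here. Alternatives tried were other scalings, DESeq2 1.42.0, no low-count filter, leaving out each sample, replicate numbers as a block, other gates, doublets kept and stricter cell filters.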

Additional observations from a re-analysis of the deposited data

Results flagged for a closer look

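Glul and Oat changed in opposite directions in 2 myeloid classes, and the test of the difference between the classes passed the threshold. The Glul change in monocyte and macrophage-like cells minus that in neutrophil-like cells was 1.67 on the log2 scale, and the Oat difference was -1.42. The monocyte and macrophage-like sums of IL-2/CD25 samples rest on 46 to 112 cells.

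Ass1 in monocyte and macrophage-like cells was 10.6 CPM in IL-2/CD25 2, far from the 23.1 to 24.9 CPM of the other IL-2/CD25 samples. Its gap to the nearest sample was 0.878 of the range of the group. Of 58 groups of 4 samples examined 1 stood out in this way, and chance alone marks about 1 in 20.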

How the results depend on the processing

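Of 61 tests of a member, 38 were called. Of these, 30 were called in the same direction in every alternative in which the gene was tested. The 8 others were lost in some. Alternatives in which a gene fell to the low-count filter are not counted. Cps1, Otc and Pck1 in keratin-high cells were tested in 15 alternatives, where Glul was tested in 17. Sds in hepatocyte-like barcodes was tested in 13, where Cps1 was tested in 16. The 30 include calls of Cps1, Otc and Pck1 that passed the filter only through the IL-2/CD25 samples. Between 14.8% and 82.4% of all genes were called in the same comparisons, so the number of calls is not in itself a result about the members. Glul in T-like cells was lost in 9 alternatives and Glul in cDC1-like cells in 5. With the replicate numbers as a block, Ass1 in monocyte and macrophage-like cells had a log2 change of 0.82 (edgeR's quasi-likelihood test, adjusted p = 0.0551), Glul in T-like cells 0.41 (0.0802) and Glul in cDC1-like cells 0.70 (0.0593). Pck1 was gained in NK and ILC1-like and T-like cells, where it had 0 Control UMIs, so the gain adds nothing to the counts. The numbers do not pair the samples: the correlation of deviations from the group means was -0.342, 0.123 and 0.363 for numbers 1 to 3, and only Control 3 correlated best with its own number. The block gave 11247 called genes in all kept barcodes, 12760 in other cells, 3722 in monocyte and macrophage-like, 4419 in neutrophil-like, 4484 in NK and ILC1-like, 5153 in T-like, 6937 in keratin-high, 1716 in B-like, 3616 in cDC1-like and 1155 in pDC-like cells.

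Leaving out 1 sample moved the number of called genes by over 1.5 times in 4 comparisons. It ranged from 2868 (without Control 2) to 4916 in NK and ILC1-like cells against 4977 with all samples, from 4348 (without IL-2/CD25 3) to 7167 between hepatocyte-like barcodes and other cells against 7652, from 1110 (without Control 3) to 1980 in B-like cells against 1987, and from 853 (without Control 1) to 1421 in pDC-like cells against 1339. Where an alternative left 1 sample in a group, that sample is assumed to vary like the other group. Fits of hepatocyte-like barcodes between groups, and of keratin-high cells without Ptprc barcodes, could not be made.

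Scaling by library size, chosen after seeing the data, moved the median change of all genes from 0.01 to 0.38 in other cells (6657 higher and 6655 lower calls, against 8817 and 4817) and from -0.16 to 0.66 in keratin-high cells (4306 and 5364, against 7078 and 2769). It also moved it from -0.05 to 0.40 in all kept barcodes (6250 and 6680, against 8328 and 4724). The split of higher and lower calls moved by over 10 percentage points as well in T-like (2949 and 3249, against 3814 and 2775), B-like (828 and 1159, against 1209 and 979), cDC1-like (2021 and 2080, against 2482 and 1609) and pDC-like cells (573 and 766, against 755 and 628) and in the interaction (1658 and 1574, against 2067 and 1076). The median moved from 0.05 to 0.18 in T-like cells, from 0.00 to 0.12 in cDC1-like cells, from 0.00 to 0.17 in the interaction and to -0.23 between keratin-high and other cells.

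Changes of sign concerned members that did not pass. In all kept barcodes Glul became 0.24 and Ass1 0.26 with library size scaling, and Ass1 ranged from -0.39 to 0.085 with a sample left out. Between keratin-high cells of the groups, Ass1 ranged from -0.35 (without IL-2/CD25 3) to 0.81 (without IL-2/CD25 1), and was -0.89 with a keratin gate of 20 UMIs and -3.13 with the hepatocyte gate taken first, and Oat became 0.61 with library size scaling, 0.34 with a keratin gate of 5, and ranged from -0.94 to 0.25 with a sample left out. Between keratin-high and other cells, Oat became -0.036 with library size scaling. Glul in hepatocyte-like barcodes became -0.24 with a gate of 5%. With a sample left out, Ass1 ranged from -0.25 to 0.79 in NK and ILC1-like, from -0.45 to 0.088 in T-like and from -0.12 to 0.81 in B-like cells. Oat ranged from -0.075 to 0.69 in NK and ILC1-like and from -0.0081 to 0.19 in cDC1-like cells, Glul from -0.36 to 0.20 in B-like and from -0.46 to 0.10 in pDC-like cells, and the Hal interaction from -0.83 to 0.12. Glul in B-like cells became 0.064 with library size scaling and 0.091 without the low-count filter. The cause was not tested.

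The difference in shares of hepatocyte-like barcodes ranged from 0.460 to 0.840 percentage points with a sample left out and from 0.403 to 0.715 under other gates (exact permutation p = 0.0857 to 0.171), and that of keratin-high cells from -16.8 to -5.71 and from -18.6 to -5.97 (p = 0.0286 to 0.1). With the smaller tail doubled both shares had an exact permutation p = 0.0571. Depth limits Sds and Glul in hepatocyte-like barcodes most, with 43 and 52 UMIs.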

Other observations

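Odc1, ornithine decarboxylase, which draws on ornithine for polyamines, was lower in IL-2/CD25 samples in every class of other cells for which it was named by the rule. It averaged 71.2 ± 39.9 CPM in IL-2/CD25 and 139.5 ± 19.2 CPM in Control monocyte and macrophage-like cells, 25.9 ± 7.35 CPM in IL-2/CD25 and 83.4 ± 16.6 CPM in Control neutrophil-like cells, 43.4 ± 8.78 CPM in IL-2/CD25 and 122 ± 15.3 CPM in Control NK and ILC1-like cells, 36.7 ± 9.69 CPM in IL-2/CD25 and 87.6 ± 10.4 CPM in Control B-like cells, and 111 ± 30.1 CPM in IL-2/CD25 and 425 ± 10.7 CPM in Control cDC1-like cells (SD, n = 4 and 3). The adjusted p of edgeR's quasi-likelihood test lay between 1.45e-07 and 0.00448.

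Znrf3 and Axin2, known from Wnt signalling in liver zonation, were higher in IL-2/CD25 samples in T-like cells. Znrf3, a ligase that removes Wnt receptors, averaged 27.3 ± 3.00 CPM in IL-2/CD25 and 8.93 ± 1.28 CPM in Control T-like cells (log2 1.5 ± 0.19), and Axin2, a Wnt target, 27.2 ± 2.38 CPM in IL-2/CD25 and 11.8 ± 1.85 CPM in Control T-like cells (log2 1.09 ± 0.18). The adjusted p of edgeR's quasi-likelihood test was 8.76e-05 for Znrf3 and 0.000416 for Axin2. Of the 7 tested hepatocyte regulators 2 were higher and 2 lower in these cells, where 46.3% of all genes were called.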
